A study of Homo sapiens with 12 samples.

Results

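The HOX genes were followed through H3K27me3 maps made in SH-SY5Y, a neuroblastoma cell line of sympathetic origin. The 38 genes were taken by name from the HOXA, HOXB, HOXC and HOXD clusters, out of 20033 protein-coding genes of the annotation (GENCODE release 44, hg38). The rule uses no measured value. Chromatin was precipitated with an antibody against H3K27me3 from normal, Tau-expressing cells (wild type, WT) and from 2 lines in which Tau was knocked out (Tau-KO), named 231K and 232P. All 3 carry the SH-SY5Y background and none is described as treated. The Tau-KO lines are edited at MAPT, the gene for Tau, were described in earlier work and stand for their genotype only as single lines, so that genotype and line cannot be told apart. Each cell line had 2 samples, replicates A and B, with 1 peak list per sample, and the 6 input samples were not analysed here.

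The lists differed in ways that bear on every value below. They held 285826 and 222191 peaks in WT replicates A and B, 271413 and 212347 in 231K, and 147118 and 199677 in 232P. The list of 232P replicate A stood apart from the others. Its peaks covered 2.28% of the genome, against 6.37% to 9.40% in the other 5 samples. The smallest peak, which in these lists has the length of 1 fragment, was 175 to 179 bp in the 3 replicates A and 240 to 262 bp in the 3 replicates B, so the replicate letter goes with a technical difference. The number of reads is not in the lists. The relative depth recovered from them was 100% in WT replicate A, 66.6% in WT replicate B, 94.8% and 68.7% in 231K, and 68.1% and 56.9% in 232P.

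HOX genes encode homeodomain transcription factors that specify position along the body axis, and they lie in 4 clusters on different chromosomes. Their order along the chromosome follows the order in which they are used, with low-numbered (anterior) genes at the 3′ end of a cluster and high-numbered (posterior) genes at the 5′ end, and genes with the same number in different clusters are paralogs. H3K27me3, trimethylation of lysine 27 of histone H3, is set by the Polycomb repressive complex PRC2. It covers HOX genes in broad domains where they are silent, whereas the HOX genes that a cell uses are typically free of it, so that a cluster can be split into a covered and a bare portion.

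A peak that reached into the window of 1 kb to either side of an annotated transcription start site (TSS) was counted as a TSS mark of that gene. Of the 38 HOX genes, 26 (68.4%) had a TSS mark in all 6 samples, 4 had one in some samples and 8 had none. Among all protein-coding genes, 11.4% had a TSS mark in all 6 samples and 78.1% had none in any. The marked HOX genes were divided by cluster. All 10 genes of HOXA and all 10 of HOXB were marked in every sample, as were 5 of 9 in HOXC (HOXC13, HOXC12, HOXC11, HOXC10 and HOXC6), but only HOXD13 of the 9 in HOXD. HOXC4, HOXC5, HOXC8, HOXD1, HOXD3, HOXD4, HOXD8 and HOXD9 had no peak at a start site in any sample. Counted by start site, 33 of 33 sites of HOXA and 31 of 31 of HOXB were marked in all 6 samples, against 8 of 21 in HOXC and 1 of 20 in HOXD. With only the start of the MANE Select transcript, the reference transcript of each gene, the genes marked in all samples were 24, since HOXC6 and HOXC10 left the group.

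**Figure D1:**
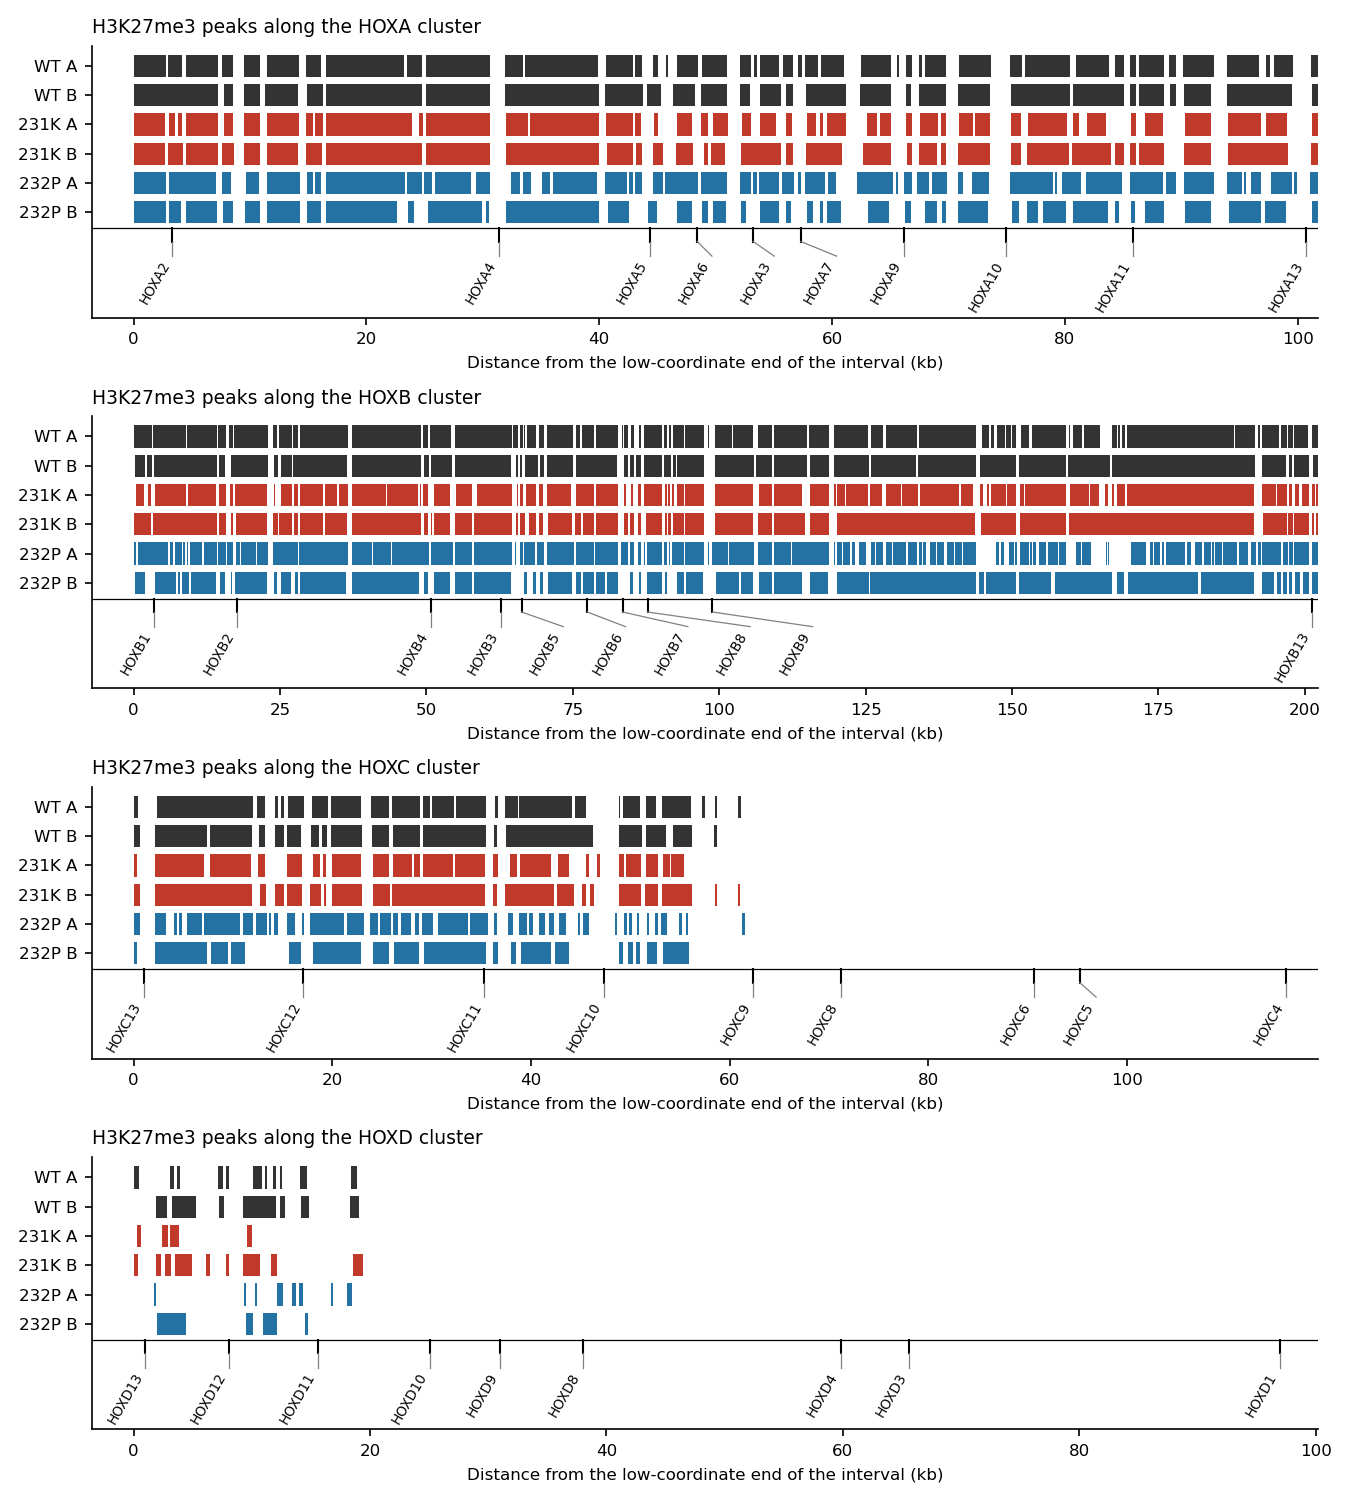
H3K27me3 peaks (bars) along the 4 HOX clusters in the 6 samples, in kb from the low-coordinate end of each interval, with the MANE Select start of each gene as a tick (black, WT; red, 231K; blue, 232P). In HOXA and HOXB peaks lay along the whole interval with short gaps between them, whereas the last 57.6 kb of HOXC and the last 80.8 kb of HOXD held no peak in any sample.

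The extent of the mark along each cluster is shown in the map of peaks. The interval of each cluster ran from 1 kb before its first gene to 1 kb after its last: for HOXA, which here begins at HOXA2, chr7:27099354-27201091, for HOXB chr17:48527526-48729750, for HOXC chr12:53937831-54057030 and for HOXD chr2:176091721-176191907. HOXB was the most covered, with 86.2% and 89.3% of its bases under peaks in WT, 80.8% and 87.0% in 231K, and 78.7% and 80.3% in 232P (replicates A and B). HOXA had 75.7% and 78.5% in WT, 66.6% and 74.1% in 231K, and 74.1% and 63.6% in 232P. HOXC had 35.8% and 36.9% in WT, 30.8% and 36.6% in 231K, and 28.1% and 29.6% in 232P. The order HOXB, HOXA, HOXC, HOXD was the same in all 6 samples. HOXD, with 4.31% and 8.01% in WT, 2.02% and 6.07% in 231K, and 2.42% and 4.46% in 232P (replicates A and B), was less covered than the genome in 5 of 6 samples, the exception being 232P replicate A. Set beside 30298 tiles of 100 kb over the genome, whose mean coverage was 6.96%, the mean coverage of HOXB was reached by 0.0462% of the tiles, that of HOXA by 0.492%, that of HOXC by 8.37% and that of HOXD by 24.2%. The intervals are not all of this length, HOXB being 202 kb long.

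The peaks also differed in strength. Fold enrichment is the number of reads at the summit over the local background, each with 1 added. The highest value within a cluster ranged over the samples from 11.03 to 18.8 in HOXA, from 9.73 to 16.7 in HOXB and from 10.2 to 12.9 in HOXC, but from 3.97 to 6.67 in HOXD. The strongest peak of HOXA, HOXB and HOXC was at a percentile of 99.9 or above, after rounding, in the ranking of its own list by the -log10 q-value, whereas that of HOXD was at a percentile of 71.1 to 95.7. The local background under the peaks was 1.22 to 1.64 times the genome-wide background of the sample in HOXA and 1.16 to 1.47 times in HOXB, and 1.00 to 1.17 times in HOXC and 1.00 to 1.51 times in HOXD. Its part in these values was not tested. When peaks closer than 5 kb were joined, the HOXB domain was 653 to 693 kb long in all 6 samples and reached beyond the cluster. Those of HOXA and HOXC varied more, with 208 to 649 kb and 111 to 252 kb, and those of HOXD were 5.26 to 29.7 kb.

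**Figure D2:**
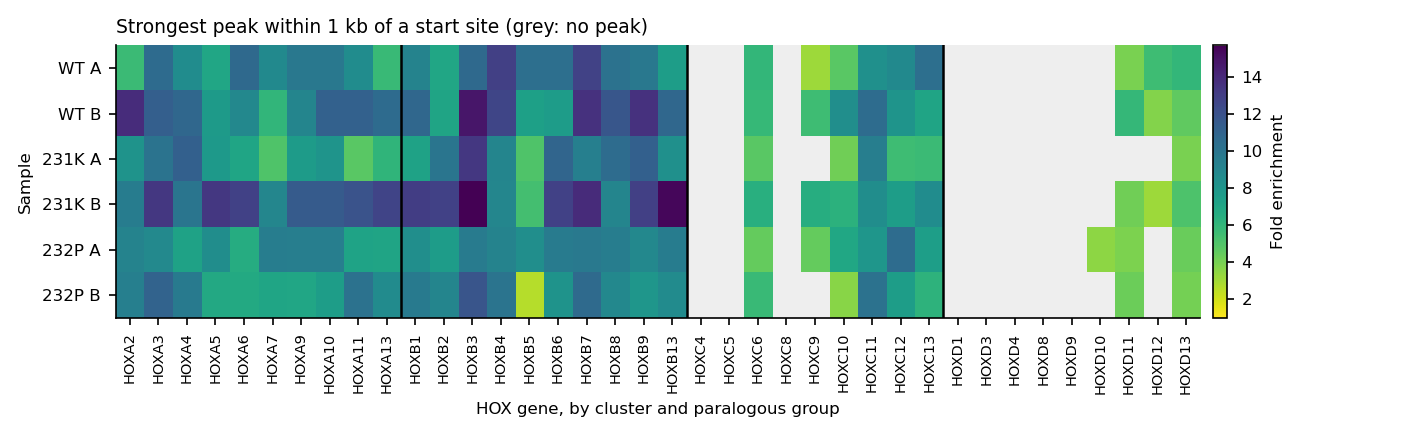
Fold enrichment of the strongest peak within 1 kb of any start site, for each HOX gene (columns) in each sample (rows). All cells of HOXA and HOXB are filled, while those of HOXC and HOXD are filled towards the posterior genes, with values between 3.14 and 5.96 in HOXD.

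In HOXB, HOXB3 had the highest rank of all 38 genes. It is an anterior HOX gene known for its use in the hindbrain. The fold enrichment of its strongest start-site peak was 10.7 and 14.8 in WT, 13.3 and 15.7 in 231K, and 9.56 and 11.8 in 232P. Both lines overlapped with WT, and both 231K values were above both 232P values. HOXB3 has 12 annotated start sites, of which the strongest peak was taken, against 1 for HOXB4, HOXB5, HOXB9 and HOXB13. HOXB5 had the lowest rank of the cluster. It had 10.3 and 7.33 in WT, 5.06 and 5.38 in 231K, and 8.45 and 2.63 in 232P. The value of 2.63, in 232P replicate B, was at a percentile of 8.81 in its list, whereas in the other 5 samples HOXB5 was at 87.0 or above. Both 231K values of HOXB5 were below both WT values, and 1 of the 232P values lay between the WT values and 1 below them. In HOXA, the highest rank was that of HOXA3, with 10.5 and 11.2 in WT, 10.1 and 13.3 in 231K, and 8.75 and 11.03 in 232P. HOXA3 has 6 annotated start sites, of which the strongest peak was taken. In 231K replicate B that peak was also the strongest of HOXA5. The lowest rank was that of HOXA7, with 8.73 and 6.03 in WT, 5.05 and 8.93 in 231K, and 9.45 and 7.03 in 232P. The groups overlapped for both genes. Over the genes with a mark, the median fold enrichment was 8.73 and 8.99 in WT, 7.92 and 10.0 in 231K, and 8.45 and 8.16 in 232P, against 4.76 and 5.46, 4.92 and 5.74, and 4.84 and 4.86 for all marked protein-coding genes.

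HOXC was divided in the middle, with its posterior genes under the mark. HOXC11, the strongest gene of the cluster, was enriched 8.34 and 10.5 times in WT, 9.43 and 8.47 in 231K, and 7.95 and 10.2 in 232P. Its neighbours towards the 5′ end, HOXC12 and HOXC13, ranged from 5.57 to 10.5 and from 5.65 to 10.3. Further towards the 3′ end the peaks became weaker and depended on which start site was read. HOXC10 had 4.76 and 8.41 in WT, 4.17 and 6.25 in 231K, and 6.96 and 3.61 in 232P, but at its MANE Select start a peak was found in the 2 samples of 231K only. HOXC6 is annotated with a far upstream start, at chr12:53990624, which was marked in all 6 samples with 4.47 to 6.41, while its MANE Select start, at chr12:54028440, was bare in all 6.

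HOXC9 lay at the border of the HOXC domain. It had a peak at a start site in WT replicates A and B, with a fold enrichment of 3.18 and 5.58, in 231K replicate B with 6.53 and in 232P replicate A with 4.47, and none in the remaining sample of each Tau-KO line. The position of the last marked base of the cluster relative to the MANE Select start of HOXC9 was -1.22 and -3.59 kb in WT, -6.98 and -1.27 kb in 231K, and -0.764 and -6.39 kb in 232P. The border thus lay within 6.21 kb in the 6 samples, and the cell lines overlapped. Beyond it, no sample had a peak in the 49.0 kb from 1 kb before the start of HOXC8 to the end of the interval, which holds HOXC8, HOXC6 from its MANE Select start, HOXC5 and HOXC4. Up to that point, 47.8% to 62.7% of the bases were covered. The stretch with no peak in any sample extended past the cluster, over 110 kb in all (chr12:53999398-54109707). Its far end was set by a peak of WT replicate A alone, and the bare stretch was 406 to 412 kb long in each of the other 5 samples.

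In HOXD the mark was confined to the posterior end in the 6 lists and was weak there. HOXD13, a posterior gene known for its role in digits, was its only gene marked in all samples, and at a -log10 q-value of at least 5 it too was unmarked in both 232P samples and in 231K replicate A. Its fold enrichment was 5.96 and 4.58 in WT, 3.97 and 5.09 in 231K, and 4.37 and 4.07 in 232P. HOXD11 had peaks of 3.97 and 5.88 in WT, 4.17 in 231K replicate B, and 3.91 and 4.28 in 232P, with none in 231K replicate A. HOXD12 had 5.56 and 3.71 in WT and 3.14 in 231K replicate B. HOXD10 had start-site peaks in 232P replicate A only, 2 in number, the stronger at 3.47. These genes were near the limit of detection: the strongest peaks of the cluster had 8 to 19 reads at the summit, against 25 to 39 in HOXB. The last marked base varied by 9.40 kb between samples. From 1 kb before the MANE Select start of HOXD10 on, no sample had a peak in the remaining 76.1 kb, with HOXD10, HOXD9, HOXD8, HOXD4, HOXD3 and HOXD1. The stretch with no peak in any sample was 495 kb long (chr2:176111151-176606342) and took in MTX2, the neighbour on that side. Here too WT replicate A alone set the far end, and in the other 5 samples the bare stretch was 2087 to 9961 kb long.

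By paralogous group, each of the 8 genes without a mark, all in HOXC or HOXD, had a paralog in HOXB that was marked in all samples. All 4 genes of group 13 (HOXA13, HOXB13, HOXC13 and HOXD13) were marked in 6 samples. In group 4, HOXA4 and HOXB4 were marked in 6 samples and HOXC4 and HOXD4 in 0. In group 9, HOXA9 and HOXB9 were marked in 6, HOXC9 in 4 and HOXD9 in 0. No group of paralogs was without a marked gene.

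**Figure D3:**
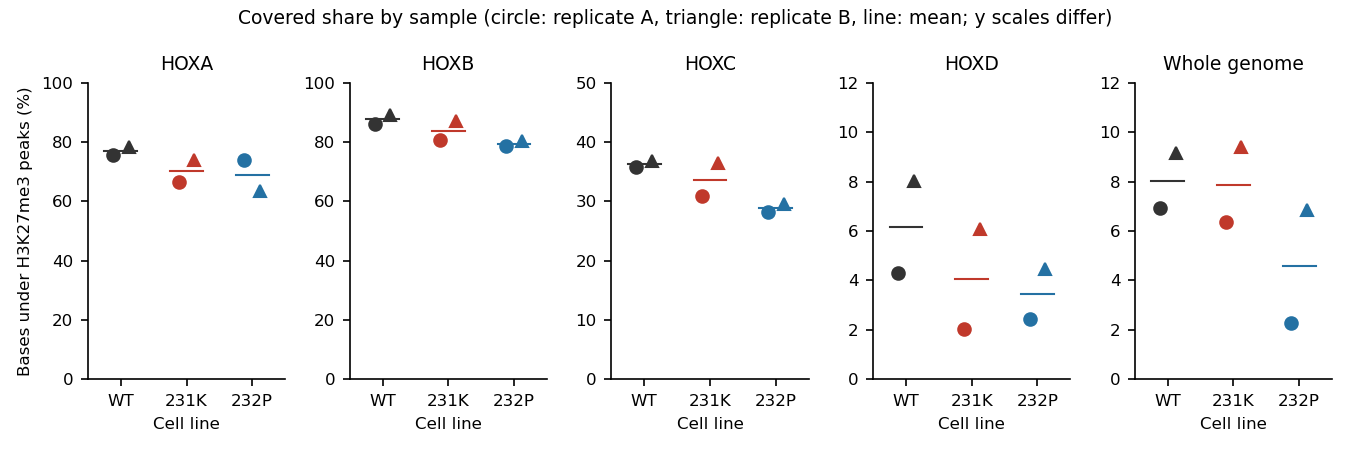
Share of bases under H3K27me3 peaks (%) in each HOX cluster and in the whole genome, by cell line (circles, replicate A; triangles, replicate B; lines, mean of 2 samples; the y scales differ). In HOXA all 4 Tau-KO samples lie below both WT samples, and in the genome the circle of 232P, at 2.28%, lies apart.

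Whether the loss of Tau changed the mark on the clusters was asked next, with the covered share of each cluster and an exact permutation test (two-sided, 2 WT against 4 Tau-KO samples), for which the smallest possible p is 0.0667. In HOXA, 77.1% ± 1.93 (SD, n = 2 samples) of the bases were covered in WT. In Tau-KO cells the share was 69.6% ± 5.32 (n = 4 samples, 2 of each line), a difference of -7.51 percentage points (exact permutation p = 0.133). All 4 Tau-KO samples were below both WT samples, and the difference was -5.40 points among replicates A and -9.61 among replicates B. In HOXB the difference was -6.06 points (exact permutation p = 0.2), with -6.46 among replicates A and -5.66 among replicates B, and 3 of 4 Tau-KO samples were below both WT samples. Its size depended on the peaks used, at -9.66 points with the q-value threshold of 5 on the -log10 scale and -3.55 points with peaks joined within 1 kb. In HOXC it was -5.08 points (exact permutation p = 0.267), with -6.36 and -3.80, and in HOXD -2.42 points (exact permutation p = 0.267), with -2.09 and -2.74. The HOXD value rested on single WT libraries, at -0.565 points without WT replicate B and -4.27 without WT replicate A. The differences had the same sign in all 4 clusters, but the whole genome also had less coverage in Tau-KO samples, by -1.81 points (exact permutation p = 0.467). That was -0.152 points in 231K and -3.47 in 232P, and it depended on single libraries, with -0.494 points without 232P replicate A, -0.692 without WT replicate B, -2.93 without WT replicate A and -2.87 without 231K replicate B. As ratios, Tau-KO cells had 0.903 of the WT coverage in HOXA, 0.931 in HOXB, 0.860 in HOXC and 0.608 in HOXD, against 0.775 in the genome. Without 232P replicate A these ratios were 0.883, 0.942, 0.889 and 0.679, against 0.938 in the genome. The ratios of HOXA and HOXC thus moved from above to below that of the genome. HOXB stayed above it and HOXD below it in both cases. With 2 against 4 samples, no difference could reach a p under 0.05. With summit heights and backgrounds thinned to the relative depth of the shallowest sample, the 4 clusters differed by -6.81, -6.51, -4.04 and -2.07 points, where only called peaks were thinned and the extents of those left were kept as deposited. With equal numbers of strongest peaks they differed by -8.08, -6.26, -4.18 and -1.19. When each sample was divided by its genome-wide coverage and rescaled, the direction turned in 3 clusters. On this scale, which is no longer a share of bases, the differences became 36.0 in HOXA, 40.6 in HOXB and 11.9 in HOXC. HOXD kept its sign at -0.546.

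Taken line by line, 231K differed from WT by -6.73 points in HOXA, -3.86 in HOXB, -2.66 in HOXC and -2.11 in HOXD, and 232P by -8.29, -8.27, -7.50 and -2.72 points. With 2 samples against 2, the smallest possible exact permutation p is 0.333 and no line could reach significance. Single libraries carried much of these values. Without 231K replicate A, the differences of 231K were -2.99, -0.757, 0.206 and -0.0853 points in HOXA, HOXB, HOXC and HOXD, and without 231K replicate B they were -10.5, -6.96, -5.53 and -4.14. In HOXA, 232P differed by -3.06 points without 232P replicate B and by -13.5 without 232P replicate A. Without WT replicate B, 231K differed by -2.31 points in HOXB and by -0.262 in HOXD, where 232P differed by -0.869. In HOXD, leaving out WT replicate A gave -3.96 points for 231K and -4.57 for 232P, and leaving out 232P replicate A gave -1.70 for 232P. For 232P, the difference from WT turned positive in all 4 clusters when each sample was divided by its genome-wide coverage and rescaled. The rescaled values are no longer shares of bases. Genome-wide coverage was 2.28% in 232P replicate A and 6.86% in 232P replicate B, and the scaling was not repeated without replicate A. For 231K the same scaling kept the sign, at -4.00 in HOXA, -0.937 in HOXB, -1.63 in HOXC and -1.82 in HOXD.

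Most marked genes kept their TSS mark in both Tau-KO lines. Loss meant a TSS mark in both WT samples and in neither sample of a line, and gain meant the reverse. Of the 29 HOX genes marked in both WT samples, 0 were lost in 231K, where 2.52% of all protein-coding genes so marked were lost, and 1 was lost in 232P, where 7.0% were. The 1 gene was HOXD12. Body coverage of HOXD12 was 26.1% and 57.6% in WT, 17.1% and 52.2% in 231K, and 15.1% and 21.9% in 232P, so that the gene kept peaks downstream of its start in 232P. Of the 9 HOX genes unmarked in both WT samples, 0 were gained in 231K and 0 in 232P, where 0.206% and 0.0813% of all unmarked genes were gained. No test was made of these counts. Without 231K replicate B, 3 genes (HOXC9, HOXD11 and HOXD12) would count as lost in 231K, and without 232P replicate A, 2 genes (HOXC9 and HOXD12) in 232P.

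**Figure D4:**
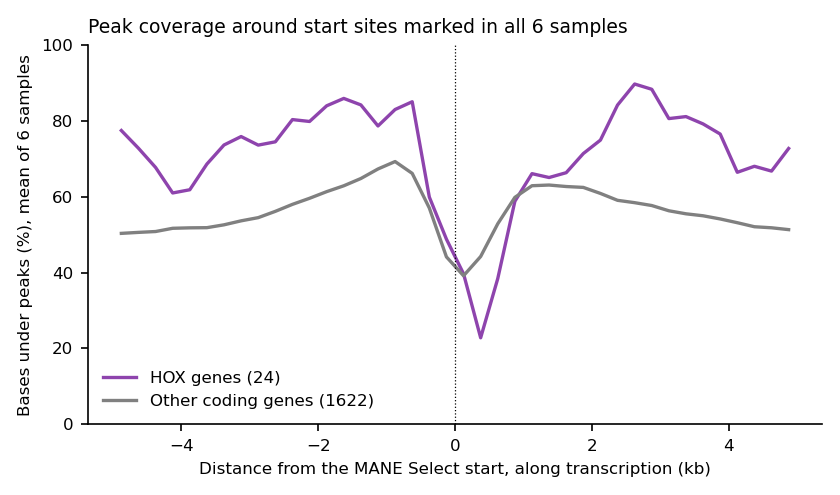
Bases under peaks (%, mean over 6 samples and all genes of the set) in 250 bp bins around the MANE Select start, for the 24 HOX genes and the 1622 other protein-coding genes with a peak within 1 kb of it in all 6 samples. The HOX profile drops from 85.1% upstream to 22.8% between 250 and 500 bp downstream of the start.

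In HOXA, HOXC and HOXD, 13 gaps of at least 1 kb and at most 10 kb had no peak in any of the 6 samples, and they were 1.02 to 2.05 kb long. Of these, 10 held an annotated start of a HOX gene and 7 its MANE Select start, those of HOXA4, HOXA10, HOXA13, HOXC13, HOXC10, HOXD13 and HOXD11. HOXB had 0 such gaps. In HOXD lay 4 of the 13 gaps and 3 of the 10 with a start, where peaks covered only 8.41% to 33.4% of the 24.1 kb that held them, and the share of gaps that would hold a start by position alone was not computed. Around the MANE Select starts of the 24 HOX genes marked there in all samples, peaks covered 44.3% of the bases within 250 bp and 74.9% of those from 2 to 5 kb away, and 18 of 24 genes were less covered inside than outside. For the 1622 other protein-coding genes so marked, the values were 41.7% and 54.5%, with 57.5% of the genes less covered inside. HOXA4, HOXA10, HOXA13, HOXC13 and HOXD13 had 0% within 250 bp, while HOXB3 and HOXB6 had 100%, so the dip was not shared by all genes. The start base itself was in a peak in 14 and 9 of the 24 genes in WT replicates A and B, in 8 and 11 in 231K, and in 17 and 8 in 232P. Replicate A of 232P had the most.

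The sequences before the start of HOX genes were read from the RefSeq promoter table (GRCh38.p14, 250 bases before to 50 after each start), which held 20 of the 38 genes with 26 distinct windows. They were searched for the dinucleotide CG, which reads the same on both strands. A CG was found in 96.2% of the HOX windows and in 96.0% of all 34943 windows of the table. The median number was 22.5 in HOX windows and 14 in all. Windows of HOX genes marked in all samples had a median of 21.5 (18 windows). Those of HOX genes marked in none had 25 (5 windows, from 4 to 36). Windows were sorted by the mark of their gene, not by their own coverage, and most of the 18 lay in HOXA. Among these 18, the windows that peaks touched in all 6 samples were below the median of 14. They had 11 CG in HOXA2, 13 in HOXA11, 11 in HOXB1, and 0, 6 and 7 in HOXA3. Those touched in no sample had from 24 in HOXD13 to 44 in HOXA13. Sequences are shown for the lowest-ranked gene of HOXA, for HOXB1 as the HOXB gene of the table, and for an unmarked gene of HOXD, as far as they lie outside untranslated regions, with every CG in capitals. HOXB3, HOXB5 and HOXC8 are named only. The HOXA7 stretch is chr7:27156755-27156925 on the minus strand, a bare spot between peaks that no sample covered. That of HOXB1 is chr17:48531012-48531261 on the minus strand, which was covered by 100% and 76.8% in WT, 4.0% and 100% in 231K, and 100% and 64.0% in 232P. That of HOXD1 is chr2:176188418-176188667 on the plus strand, in the bare portion of HOXD.
HOXA7: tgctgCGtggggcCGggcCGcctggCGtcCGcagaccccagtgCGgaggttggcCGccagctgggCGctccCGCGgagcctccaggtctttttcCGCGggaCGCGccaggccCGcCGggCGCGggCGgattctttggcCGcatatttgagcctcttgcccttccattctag
HOXB1: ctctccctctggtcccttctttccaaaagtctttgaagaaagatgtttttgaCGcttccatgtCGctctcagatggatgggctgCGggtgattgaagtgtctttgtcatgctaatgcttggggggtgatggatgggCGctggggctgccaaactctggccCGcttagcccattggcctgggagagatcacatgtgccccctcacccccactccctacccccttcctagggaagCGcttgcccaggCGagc
HOXD1: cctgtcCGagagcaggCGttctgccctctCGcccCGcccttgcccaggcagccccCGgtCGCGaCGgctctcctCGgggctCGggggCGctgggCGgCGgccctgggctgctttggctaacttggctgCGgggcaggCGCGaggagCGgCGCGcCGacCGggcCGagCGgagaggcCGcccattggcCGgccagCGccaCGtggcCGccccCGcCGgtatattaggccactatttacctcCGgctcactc

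HOX clusters also encode microRNAs, short RNAs that repress transcripts matching their seed, and some of these target HOX transcripts. The peaks at their starts were in part those already counted for HOX genes, so their marks are not separate results. For example, the peak at MIR196A1 in WT replicate B was also the strongest of HOXB7. The 3 genes of the miR-196 family share the seed AGGUAGU. MIR196A1 in HOXB (chr17:48632490-48632559) was enriched 12.8 and 13.6 times in WT, 11.2 and 12.9 in 231K, and 9.67 and 8.31 in 232P. Of the 4 Tau-KO values, 3 were below both WT values. MIR196B in HOXA (chr7:27169480-27169563) had 9.53 and 7.38 in WT, 7.75 and 11.5 in 231K, and 5.51 and 7.01 in 232P. MIR196A2 in HOXC (chr12:53991738-53991847) had 5.96 and 5.87 in WT, 3.87 and 6.53 in 231K, and 2.78 and 5.74 in 232P. All 3 were marked in 6 samples, MIR196A2 with the lowest values. MIR10A in HOXB (chr17:48579838-48579947) was marked in all samples as well, at 6.24 to 10.0, whereas its paralog MIR10B in HOXD (chr2:176150303-176150412) and MIR615 in HOXC (chr12:54033950-54034045) had no peak in any. The mature sequences of RefSeq are given with the seed, bases 2 to 8, in capitals, for the marked family, for miR-10a and for an unmarked gene.
hsa-miR-196a-5p: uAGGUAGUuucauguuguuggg
hsa-miR-196b-5p: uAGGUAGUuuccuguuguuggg
hsa-miR-10a-5p: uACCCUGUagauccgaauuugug
hsa-miR-615-3p: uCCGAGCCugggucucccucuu

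Longer non-coding RNA genes of the clusters had the same division, but in part through the same peaks, so this is no separate result. For example, HOTAIR had the same lowest and highest fold enrichment as HOXC11. Of 23 non-coding RNA genes, microRNAs included, 15 were marked in all 6 samples, 3 in some and 5 in none. Among all protein-coding genes, 11.4% were marked in all 6 samples and 78.1% in none. HOTAIR, a transcript of the posterior HOXC portion that is known to bind PRC2, was marked in all samples at 7.95 to 10.5. HOTTIP, at the posterior end of HOXA, was marked at 6.33 to 12.7. HOXC-AS1 and HOXC-AS2, at the border of the HOXC domain, were marked in 3 samples each, and HOXC-AS3, beside HOXC10, in 5. HAGLR, HAGLROS and HOXD-AS2 in the bare portion of HOXD were marked in none. HOXC-AS2 was the 1 non-coding gene lost in 232P, where 7.0% of the protein-coding genes marked in both WT samples were lost.

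**Figure D5:**
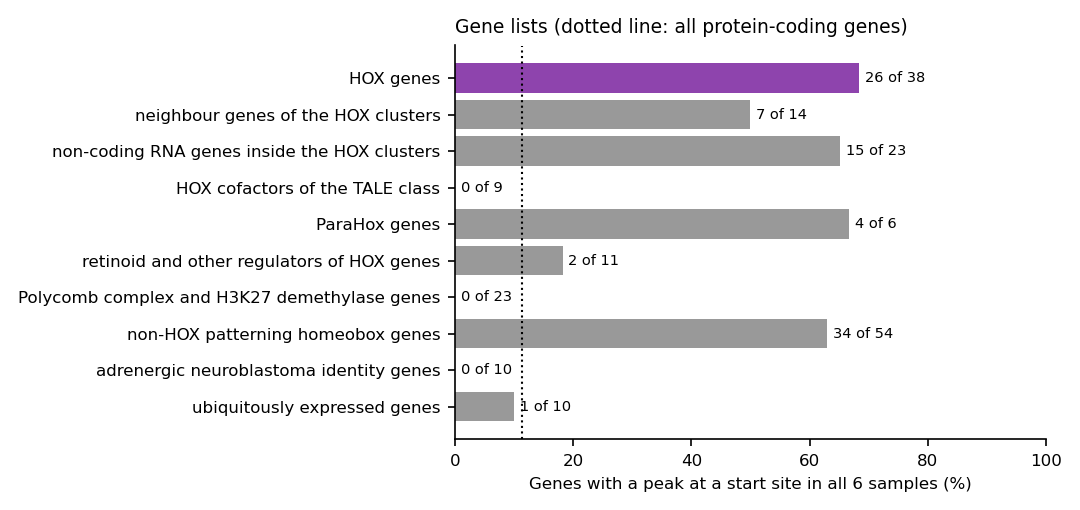
Genes with a TSS mark in all 6 samples, as percent of each list, with their number at the end of the bar. HOX genes (26 of 38), ParaHox genes (4 of 6) and other patterning homeobox genes (34 of 54) were above the 11.4% of all protein-coding genes (dotted line), and HOX cofactors (0 of 9) were not.

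Of 12 genes beside the clusters, 5 were marked in all 6 samples and 7 in none, where 11.4% and 78.1% of all protein-coding genes were. EVX1, a homeobox gene beyond HOXA13, was marked at a fold enrichment of 8.04 to 15.6, and EVX2, beyond HOXD13, at 4.72 to 8.83, with a median percentile of 94.9 against 81.1 for HOXD13. SKAP2 beside HOXA, and SKAP1 and TTLL6 at HOXB were marked as well. Both SKAP1 and TTLL6 overlapped the joined HOXB domain described above. PRAC1 and PRAC2, which lie inside the HOXB interval, were also marked in all 6 samples. LNPK and MTX2 around HOXD, HIBADH beyond EVX1, CALCOCO1, SMUG1 and CBX5 around HOXC, and CALCOCO2 at HOXB were marked in none.

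HOX proteins bind DNA together with the TALE homeodomain proteins PBX, MEIS and PKNOX, and 0 of 9 such genes had a TSS mark in any sample, where 78.1% of all protein-coding genes had none. The ParaHox genes, sisters of the HOX genes, had 4 of 6 marked in all samples (CDX2, CDX4, PDX1 and GSX2), with GSX1 in 5 and CDX1 in 0. Of 54 other homeobox genes of patterning, 34 (63.0%) were marked in all samples, 9 in some and 11 in none, and their median percentile was 93.7 against 99.3 for the HOX genes. Of 10 transcription factors and enzymes that define noradrenergic neuroblastoma cells, 0 were marked in all samples, and GATA2, GATA3, HAND2, ISL1, PHOX2A, TBX2, TH and DBH were marked in none. Since 78.1% of all protein-coding genes were also marked in none, the list was no check of the cell type, and no expression was measured in these libraries.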

How the data were processed

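H3K27me3 ChIP-seq was analysed from the peak lists of 6 samples (WT, 231K and 232P, 2 each). Groups were taken from the labels, and lists labelled 232P, whose peak names begin with 231P, were kept under their label. Reads were trimmed (trimmomatic) and aligned to HG38 (BWA) by the authors, who called peaks per sample in MACS (version 2). A broadPeak setting is named, but the lists are in the 10-column narrowPeak format and hold more peaks than the study states, so they may not be the lists behind it. The submitters' processing notes name hg38, BWA and deepTools. The deposited fold enrichment is a ratio of summit height to local background, the deposited p-value and q-value of the summit are given as -log10, and the deposited score was not used. The files used here hold no counts, so neither limma nor TMM could be run. No value was normalized between samples.

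Summit height and background were recovered from fold enrichment and p-value with the Poisson distribution, and 100% of peaks gave whole reads within 0.001 of the -log10 p-value. For the comparison at equal depth, heights and backgrounds were thinned at random to the lowest relative depth, and peaks under a -log10 p-value of 2.5 were dropped; only called peaks could be thinned, and their extents were kept. Genes came from GENCODE release 44. Covered shares were compared by exact permutation tests with scipy 1.17.1 (Python 3.11.15). Genes named are those not marked in all samples and those with the highest and lowest median percentile of each cluster; other genes were named after their values were seen. Members and lists were chosen with earlier results of these data known. The results for 1 HOX gene and for some genes of the lists are not reported here. The functions were tested on simulated data. Labels call the 2 samples of a line replicates, and p-values measure only the spread between them.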

Additional observations from a re-analysis of the deposited data

How the results depend on the processing

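The direction of the covered-share differences held in 65 of 72 recalculations for the 4 clusters and 3 comparisons (q-value under 0.05, -log10 q-value of at least 5, 147118 strongest peaks, equal depth, genome-wide scaling, joining within 1 kb). The other 7 came from dividing by the genome-wide coverage and rescaling to its mean, after which the values are no longer shares of bases. Tau-KO against WT then gave 36.0 in HOXA, 40.6 in HOXB and 11.9 in HOXC. With this scaling, 232P against WT gave 76.0, 82.1, 25.5 and 0.732 in HOXA, HOXB, HOXC and HOXD. Sizes moved by over 1.5 times in HOXB for 232P (-8.27 points, but -15.3 with the q-value threshold of 5 on the -log10 scale and -4.77 with peaks joined within 1 kb) and 231K (-3.86, but -2.34 when joined). In HOXC they did so for 232P (-7.50, but -4.83 when joined) and 231K (-2.66, but -1.67 at equal depth). In HOXD they did so for 232P (-2.72, but -1.35 with equal numbers of peaks) and 231K (-2.11, but -1.03 with equal numbers and -1.18 at the stricter threshold). The genome-wide scaling also moved sizes by over 1.5 times where it kept the sign. For 231K it gave -4.00 in HOXA (-6.73 points as reported), -0.937 in HOXB and -1.63 in HOXC. For Tau-KO against WT it gave -0.546 in HOXD (-2.42 points as reported). The smallest exact permutation p over all settings was 0.1. With the replicate block (permutation within the replicate letter) the differences are the same by construction, for example -7.51 points in HOXA, with exact permutation p of 0.222 in HOXA, HOXB and HOXC and 0.111 in HOXD. The letter goes with the fragment length, but no source says that it pairs samples, and no call changed. Leaving out each replicate kept the sign in 55 of 56 cases. The exception was 231K in HOXC, where the difference was between -5.53 and 0.206 points, the latter without 231K replicate A.

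The 26 genes marked in all samples became 11 when 50% of a window had to be covered, and lay within 1.5 times of 26 otherwise. Genes lost in 231K were 1 with equal numbers of peaks (HOXD12), 1 with the MANE Select start (HOXD11, an alternative chosen after seeing the data) and 0 to 3 when a replicate was left out. Genes lost in 232P were 0 with a 2.5 kb window, with the gene body or with 50% of the window, 2 with the outermost start and 1 to 2 when a replicate was left out. With the q-value threshold of 5 on the -log10 scale, the 1 gene was HOXD13 in place of HOXD12. Gaps in no sample's peaks numbered 11, 6, 10 and 8 in HOXA to HOXD when 500 bp sufficed, against 5, 0, 5 and 5, and at a -log10 q-value of at least 5 HOXB had 1 and HOXC 3. At that threshold the longest gap was 63.0 kb in HOXC and 88.2 kb in HOXD. Without read counts, a missing peak means only that no peak passed at that depth.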

Other observations

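Of 23 genes of the Polycomb machinery and of the enzymes that remove the mark, 0 had a TSS mark in all 6 samples and 20 had none in any, where 11.4% and 78.1% of all protein-coding genes did, and EZH2, EED and SUZ12, the core of PRC2, and the demethylase genes KDM6A and KDM6B had none in any. RBBP7 and BMI1 had weak marks in 3 samples each, with a fold enrichment of 2.94 to 4.42 and 2.62 to 4.41. Of 11 regulators of HOX genes, the retinoic acid degrading enzymes CYP26A1 and CYP26B1 were marked in all 6 samples, at 3.09 to 5.33 and 5.56 to 8.20, EGR2 in 1 and the remaining 8 in 0, among them the receptor genes RARA, RARB and RARG. Among 10 ubiquitously expressed genes, HPRT1 was marked in 6 samples and PGK1 in 5, both on the X chromosome, and the remaining 8 in 0.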
